A study of Mus musculus with 21 samples.

Results

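The genes described here are the collagens and the enzymes and chaperone that process them: every gene of the deposited expression table with a collagen chain symbol (Col, a number, the letter a and a number), together with the lysyl hydroxylases *Plod1*, *Plod2* and *Plod3*, the prolyl 4-hydroxylase subunits *P4ha1*, *P4ha2*, *P4ha3* and *P4hb*, the chaperone gene *Serpinh1*, and the lysyl oxidases *Lox*, *Loxl1*, *Loxl2*, *Loxl3* and *Loxl4*. They are 57 of the 23983 genes of the table, 44 collagen genes and 13 enzyme and chaperone genes. The study compared cells of the mouse notochord, the rod of axial mesoderm that runs below the neural tube, with mesodermal cells, in embryos and in culture. Its RNA-seq data comprise 9 libraries, 1 per condition.

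Of these, 6 libraries came from embryos that were derived from F1G4 embryonic stem cells (C57BL/6N x SV129) and that carried 3 BAC reporters, T::H2B-Venus, Noto::H2B-mCherry and Foxa2::H2B-mTurquoise. The labels give tetraploid complementation as the way the embryos were made, and the study's text gives aggregation with diploid morulae. Notochord progenitors (NotoPs) were T+/Noto+/Foxa2+ cells from the caudal end, mesodermal progenitors (MPs) were T+/Noto-/Foxa2- cells of the same region, and trunk notochord was sorted as T+/Noto+/Foxa2+ from the trunk. Each population was collected at E8.5 and again at E9.5. The other 3 libraries came from another F1G4 line, with TRE::Foxa2-IRES-EGFP at the Rosa26 locus and the BACs T::H2B-mCherry-T2A-irTA and Noto::H2B-mTurquoise. These cells were differentiated in culture and sorted as T+/Noto- on day 3 (NMPdiff, like neuromesodermal progenitors), as T+/Noto- on day 4 (MPdiff), or as T+/Noto+ on day 4 after Foxa2 had been induced with doxycycline (NotoPdiff). In NotoPdiff cells *Foxa2* is therefore driven by a transgene. Embryos were pooled before sorting. Trunk embryos spanned a wider range of somite stages than the NotoP embryos of the same day, and the gate for trunk notochord took cells with high Foxa2 reporter signal, as did that for NotoPs at E9.5 but not at E8.5. Position, stage range and, at E8.5, gate therefore cannot be told apart between trunk notochord and NotoPs. Embryonic and cultured libraries were sequenced on different Illumina instruments, so ratios were formed within the embryo or within culture only, and values of both are set side by side.

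Collagens are trimers of alpha chains wound into a triple helix. In the endoplasmic reticulum, prolyl 4-hydroxylase and the lysyl hydroxylases modify the chains and Serpinh1 (Hsp47) binds the folded helix. After secretion, lysyl oxidases start the covalent cross-linking of the assembled collagen. Fibrillar collagens form cable-like fibrils, fibril-associated collagens decorate them, and type IV collagen is the network of basement membranes. The notochord is enclosed by a sheath of extracellular matrix, and type II collagen, the main fibrillar collagen of cartilage, is a known product of notochord cells.

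Values are FPKM, in which the fragments of a gene are scaled by its transcript length and by the size of the library, so that levels can be compared between genes. They keep no read counts, so the number of reads behind a gene's value is not known and no interval can be given. Per the study's supplement, the E8.5 MP library had the fewest mapped reads of the embryonic libraries after removal of duplicates, followed by both trunk libraries. With 1 library per condition there was no test, SD or p-value, and each difference describes 2 libraries. Ratios are given as log2 of (FPKM + 1) over (FPKM + 1), which makes differences of weakly expressed genes look smaller than they are, and 3-fold (1.58 on this scale) was the threshold for counting. No fold is given against a library in which a gene is listed at 0.

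A few facts of the libraries bear on what follows. The E8.5 MP library, made from the fewest cells, had 58.1% of all genes listed at 0. Of the 5483 genes with at least 5 FPKM in each of the other 8 libraries, 59 were at 0 in that library. With the gene set formed in the same way for each library, 38 of 5357 were at 0 in the E9.5 trunk library. In the E8.5 trunk library 8 of 5237 were, and in any other at most 1. The trunk libraries too were made from fewer cells than the NotoP libraries, and a 0 in any of these 3 libraries does not show that a gene was silent. The labels matched a list of 8 notochord genes (*T*, *Noto*, *Foxa2*, *Shh*, *Chrd*, *Nog*, *Foxa1*, *Mnx1*): all 8 had at least 1 FPKM in NotoPs of both stages, E8.5 trunk notochord and NotoPdiff cells, and 7 in E9.5 trunk notochord, where *Chrd* was at 0. In MPs of both stages and in MPdiff cells 3 of the 8 did. In NMPdiff cells 5 did, with *T* at 406 FPKM and *Foxa2* at 12.5. The sum of 8 paraxial mesoderm progenitor genes did not set NotoPs below MPs at E8.5. It was 227 FPKM in E8.5 NotoPs and 203 in E8.5 MPs, and 156 and 413 at E9.5. Directions within this list were mixed at E8.5: *Hes7* had 74.3 FPKM in NotoPs and 5.38 in MPs, and *Osr1* 2.81 and 34.8. In sorted bulk cells, fewer cells that express a gene and less of its RNA per cell cannot be told apart.

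Collagen RNA was a small share of the progenitor transcriptomes and a several times larger one in the trunk notochord. Summed over the 44 genes, collagens took 0.0332% of all FPKM in E8.5 NotoPs and 0.0349% in E9.5 NotoPs, and 0.0188% and 0.0226% in MPs. In E8.5 trunk notochord they took 0.158% and in E9.5 trunk notochord 0.228%, so both trunk libraries lay above the other 7. In culture the share was 0.0119% in NMPdiff, 0.0255% in MPdiff and 0.0238% in NotoPdiff cells. The processing genes were spread more evenly, with 0.139% and 0.137% in NotoPs, 0.107% and 0.102% in MPs, 0.189% and 0.166% in trunk notochord, and 0.0622% to 0.0762% in culture. E9.5 trunk notochord was the single library in which collagens outweighed their processing genes. At 5 FPKM or more, 16 of the 44 collagen genes were found in each trunk library, 7 and 8 in NotoPs, 6 and 7 in MPs, and between 2 and 9 in culture.

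**Figure D1:**
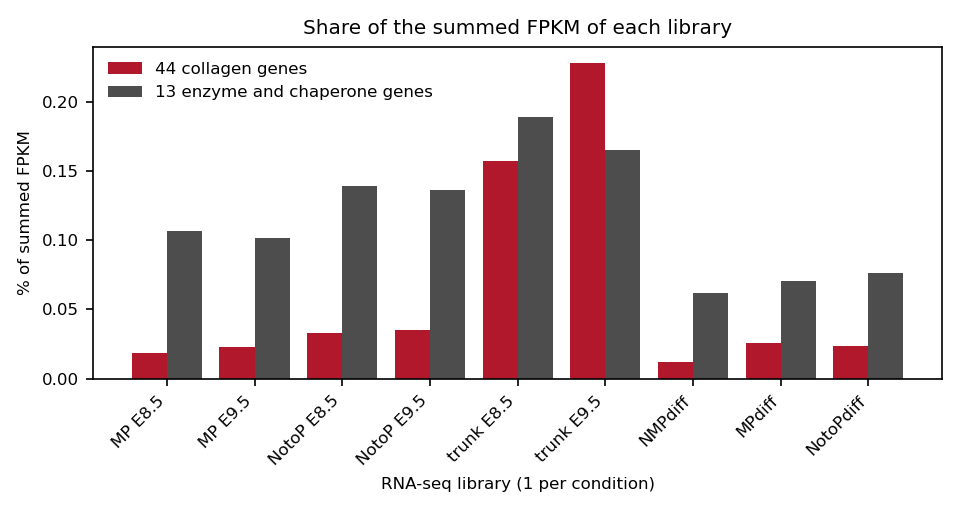
Share of the summed FPKM (%) taken by the 44 collagen genes (red bars) and the 13 enzyme and chaperone genes (grey bars) in each of the 9 RNA-seq libraries, 1 library per condition. The red bars of the 2 trunk notochord libraries reach 0.158% and 0.228%, and the other 7 stay at or below 0.0349%.

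Compared with NotoPs of the same stage, trunk notochord had 15 of the 57 genes at least 3-fold higher at E8.5 and 12 at E9.5. Over all genes of the table, 4.58% and 4.33% were as much higher. Each list includes genes listed at 0 in NotoPs, 4 at E8.5 (*Col9a2*, *Col9a3*, *Col6a3* and *Col15a1*) and 1 at E9.5 (*Col6a3*). At E8.5 all 15 were collagens, and at E9.5 11 were collagens and 1 was an enzyme, *Loxl3* (0.636 FPKM in NotoPs and 6.46 in trunk notochord). The same 10 collagen genes passed at both stages (0.88% of all genes did): the fibrillar *Col1a2*, *Col2a1*, *Col5a1*, *Col11a1* and *Col11a2*, the fibril-associated *Col9a1*, *Col9a2* and *Col9a3*, and *Col6a3* and *Col18a1*. In the opposite direction, *Col16a1* and *Col23a1* at E8.5 and *Col13a1* at E9.5 were at least 3-fold lower and listed at 0 in trunk notochord, beside 4.17% and 5.17% of all genes, and 0 of the 57 were lower at both stages (0.992% of all genes).

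The median log2 ratio of the 57 genes was 0.30 at E8.5 and 0.52 at E9.5, with a median of 0 over all genes at both stages. Averaged over the 9 libraries, 33 of the genes had 1 FPKM or more. Of these, 14 were higher at E8.5 and 11 at E9.5, beside 7.37% and 7.08% of all genes that met this minimum, and 1 was lower at E8.5 (7.39%). When each trunk library was set against the NotoP library of the other stage, 10 genes again passed in both, and the share of all genes was not counted. The collagens that stood out belonged mostly to the fibrillar class, with 6 of 11 at E8.5 and 6 of 11 at E9.5, and to the fibril-associated class, with 4 of 9 and 3 of 9. For the type IV chains the counts were 1 of 6 and 0 of 6.

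**Figure D2:**
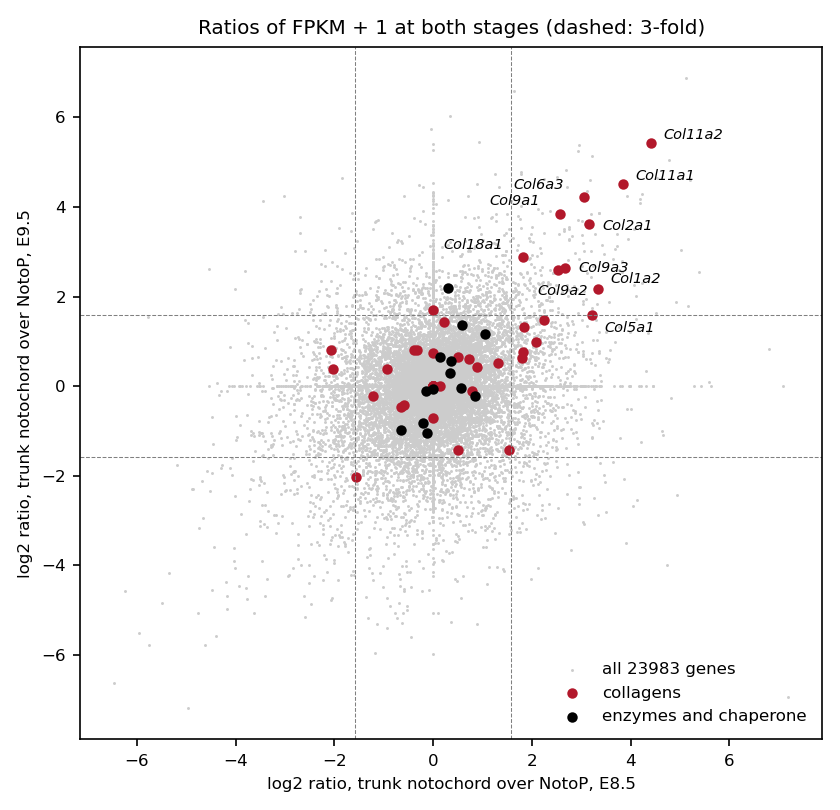
Log2 ratio of FPKM + 1 in trunk notochord over NotoPs at E8.5 (horizontal) and E9.5 (vertical) for all 23983 genes (grey), the 44 collagen genes (red) and the 13 enzyme and chaperone genes (black), with dashed lines at 3-fold. The 10 collagen genes in the upper right field are named, and no enzyme lies there.

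*Col2a1* (chromosome 15, 97975602 to 98004724, minus strand, GRCm38) encodes the chain of the type II collagen homotrimer and reached the highest level of all collagen genes. Its trunk notochord level was 188 FPKM at E8.5 and 308 at E9.5, beside 20.0 and 24.2 in NotoPs, and 0.526 and 9.06 in MPs. In culture it had 0.552 FPKM in NMPdiff, 5.55 in MPdiff and 4.05 in NotoPdiff cells. Both trunk libraries thus lay far above both NotoP libraries, with log2 ratios of 3.17 and 3.62, and both NotoP libraries above both MP libraries, with 3.78 and 1.33. In E9.5 trunk notochord it ranked 161 among all genes, against 2907 in NotoPs of that stage. NotoPdiff cells did not have the level of embryonic NotoPs, and their log2 ratio over MPdiff cells was -0.37.

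Type XI collagen, which copolymerizes with type II in cartilage fibrils, had the largest ratios. *Col11a1* (chromosome 3, 114030479 to 114220756) had 32.0 and 74.5 FPKM in trunk notochord, 1.30 and 2.30 in NotoPs, 4.28 and 4.65 in MPs, and 1.46, 2.06 and 1.02 in NMPdiff, MPdiff and NotoPdiff cells. Its log2 ratios of trunk notochord over NotoPs were 3.85 and 4.52, while NotoPs lay below MPs at both stages, with -1.20 and -0.78. With a pseudocount of 0.1 the E8.5 value was -1.65, past 3-fold. *Col11a2* (chromosome 17, 34038919 to 34066684) had 23.9 and 46.6 FPKM in trunk notochord and at most 0.168 in NotoPs and MPs, where E8.5 MPs were at 0. In culture it had 0.301, 0.372 and 1.07 FPKM, the last in NotoPdiff cells. Trunk notochord was the only embryonic population in which this chain reached 1 FPKM, and its log2 ratios over NotoPs, 4.42 and 5.42, were the largest of the 57 genes.

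Type IX collagen is a heterotrimer of 3 chains on the surface of type II fibrils. *Col9a1* (chromosome 1, 24177589 to 24252738) had 37.6 and 101 FPKM in trunk notochord, 5.48 and 6.03 in NotoPs, 5.87 and 2.36 in MPs, 0.0116 in NMPdiff, 0.618 in MPdiff and 0.597 in NotoPdiff cells. The log2 ratios of trunk notochord over NotoPs were 2.58 and 3.85, whereas NotoPs and MPs differed by less than 3-fold on this scale at both stages. The other chains did not reach 10 FPKM: *Col9a2* had 4.81 and 7.79 FPKM in trunk notochord and *Col9a3* 5.41 and 6.68, and both were at 0 in NotoPs at E8.5 and in MPs, with 0.469 and 0.226 FPKM in E9.5 NotoPs. All 3 chains of type IX therefore had their highest embryonic levels in the trunk libraries. FPKM of *Col9a1* exceeded that of *Col9a2* 7.83-fold and 12.9-fold there.

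The fibrillar genes *Col1a2* and *Col5a1* had more than 2 FPKM in every embryonic library. *Col1a2* (chromosome 6, 4505618 to 4541543) had 29.5 and 20.3 FPKM in trunk notochord, 2.02 and 3.76 in NotoPs, 6.06 and 7.11 in MPs, and 1.69, 0.507 and 0.795 in NMPdiff, MPdiff and NotoPdiff cells. *Col5a1* (chromosome 2, 27886381 to 28039510), whose product starts fibril assembly, had 45.8 and 35.4 FPKM in trunk notochord, 4.04 and 11.1 in NotoPs, 4.63 and 7.51 in MPs, and 3.33, 7.48 and 7.16 in culture. For both genes the trunk libraries were the highest of the 9. At E9.5 the log2 ratio of *Col5a1* over NotoPs, 1.59, lay just above the threshold. *Col5a2* (chromosome 1, 45374331 to 45503282), which encodes the other common chain of type V, had a different profile, with its highest value, 10.4 FPKM, in E9.5 NotoPs, 2.99 in E8.5 NotoPs, 4.65 and 3.23 in trunk notochord, 0 and 4.01 in MPs, and 0.699, 0.480 and 0.316 in culture. The remaining 5 fibrillar genes stayed below 10 FPKM in all libraries, and the highest value among them was 8.64, of *Col27a1* in E8.5 trunk notochord.

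Chains of a single type did not share a fixed ratio. *Col1a1*, whose product pairs with that of *Col1a2* in type I collagen, had 3.28 and 5.57 FPKM in trunk notochord, 0.201 and 1.64 in NotoPs and 6.63 and 1.56 in MPs. FPKM of *Col1a2* was above that of *Col1a1* in 8 of 9 libraries, by up to 10.0-fold in E8.5 NotoPs. In type XI, *Col11a1* exceeded *Col11a2* 1.34-fold and 1.60-fold in trunk notochord. The *Col5a1* to *Col5a2* ratio was 1.35 and 1.07 in NotoPs and 9.84 and 10.9 in trunk notochord.

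**Figure D3:**
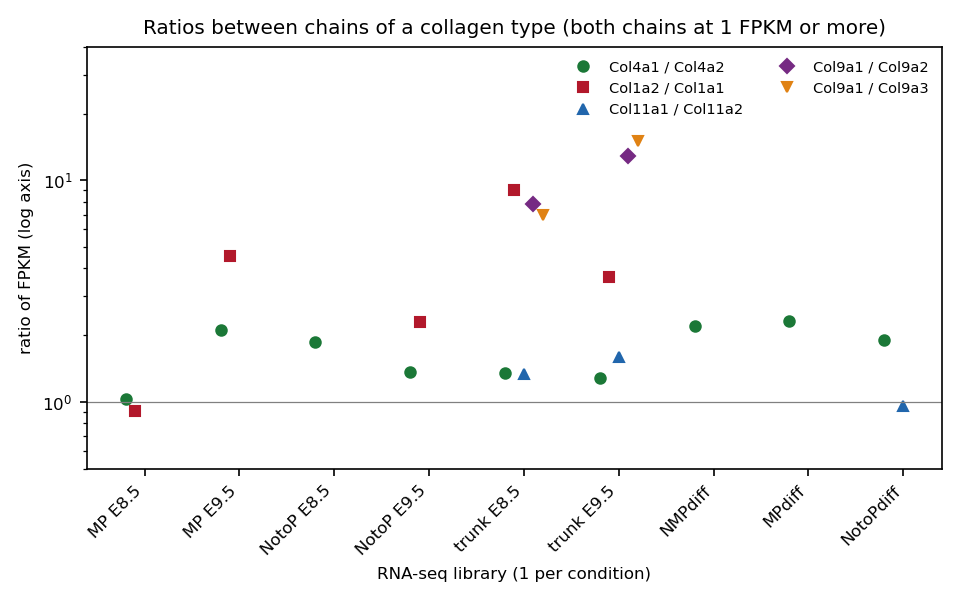
Ratio of FPKM (log axis) between chains of type IV, type I, type XI and type IX collagen in each library, drawn where both chains had at least 1 FPKM. The ratio of Col4a1 to Col4a2 stays between 1.03 and 2.31 in all 9 libraries, and the ratios within type IX can be drawn in the 2 trunk notochord libraries alone.

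The basement membrane chains were expressed more broadly. *Col4a1* had 50.9 and 29.8 FPKM in trunk notochord, 27.1 and 21.8 in NotoPs, 14.5 and 12.7 in MPs, and 9.46, 20.4 and 25.7 in NMPdiff, MPdiff and NotoPdiff cells. *Col4a2* had 37.7 and 23.3 in trunk notochord, 14.5 and 15.9 in NotoPs, 14.1 and 5.98 in MPs, and 4.29, 8.83 and 13.5 in culture. Trunk notochord lay above NotoPs, and NotoPs above MPs, for both genes at both stages, but every one of these differences was below 3-fold. For both genes the NotoPdiff values lay near those of embryonic NotoPs, whereas *Col2a1* had 4.05 FPKM in NotoPdiff cells beside 20.0 and 24.2 in NotoPs. The pair lies head to head on chromosome 8, *Col4a1* from 11198423 to 11312889 on the minus strand and *Col4a2* from 11312805 to 11449287 on the plus strand, with start sites 84 bp apart. Their FPKM ratio ranged from 1.03 to 2.31 over the 9 libraries.

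A chain of another type IV network, *Col4a5* (chromosome X, 141475370 to 141689236), had 16.6 and 6.59 FPKM in trunk notochord, 3.13 and 2.85 in NotoPs, 0 and 2.75 in MPs, and 0.309, 5.47 and 4.43 in culture. It passed 3-fold over NotoPs at E8.5 with a log2 ratio of 2.09, but not at E9.5, where the ratio was 0.98. Its neighbour *Col4a6*, which starts 1275 bp away on the other strand, had 7.66 FPKM in E8.5 NotoPs and 5.96 in E8.5 trunk notochord, and 0.387 and 1.43 at E9.5. The third such pair, *Col4a3* and *Col4a4*, was at 0 in all 6 embryonic libraries and reached at most 0.125 FPKM in culture. The *Col4a5* and *Col4a6* values did not move together, since from E8.5 to E9.5 NotoPs the log2 ratio was -0.10 for *Col4a5* and -2.64 for *Col4a6*.

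*Col18a1* (chromosome 10, 77052178 to 77166530), a collagen of basement membranes that carries heparan sulfate and whose C-terminal fragment is endostatin, had 63.7 and 112 FPKM in trunk notochord, 17.4 and 14.4 in NotoPs, 9.78 and 5.62 in MPs, and 11.6, 8.45 and 9.94 in culture. It was the second collagen after *Col2a1* in both trunk libraries, with log2 ratios over NotoPs of 1.81 and 2.87. *Col6a3* (chromosome 1, 90766860 to 90844001), a chain of the beaded filaments of type VI, had 7.30 and 17.5 FPKM in trunk notochord, 0 in NotoPs of both stages, 0.288 and 0 in MPs, and at most 0.0162 in culture. Its partners in the type VI trimer did not follow it: *Col6a1* had 0.553 and 0 FPKM in trunk notochord and *Col6a2* was at 0 in both. *Col22a1* (chromosome 15, 71795795 to 72150979), a fibril-associated collagen known from tissue junctions, had 19.0 and 8.92 FPKM in trunk notochord, 4.77 and 5.46 in NotoPs, 0 and 1.79 in MPs, and 0.409, 0.972 and 1.90 in culture.

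From E8.5 to E9.5, the collagen values of trunk notochord differed in mixed directions, also within a class. Higher values at E9.5 were found for cartilage chains, with log2 ratios of E9.5 over E8.5 trunk notochord of 0.71 for *Col2a1*, 1.19 for *Col11a1*, 0.93 for *Col11a2* and 1.39 for *Col9a1*. For *Col18a1* the ratio was 0.81 and for *Col6a3* 1.16. Lower values at E9.5 were found for type IV chains, with -0.75 for *Col4a1*, -0.67 for *Col4a2* and -1.21 for *Col4a5*, and for the fibrillar *Col1a2* (-0.52), *Col5a1* (-0.36) and *Col5a2* (-0.42). Of the fibril-associated genes, *Col22a1* was lower (-1.01) and *Col12a1* went from 6.76 FPKM to 0. In NotoPs the ratio of E9.5 over E8.5 was between -0.30 and 0.66 for these genes, except for *Col5a1* at 1.27 and *Col5a2* at 1.52.

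**Figure D4:**
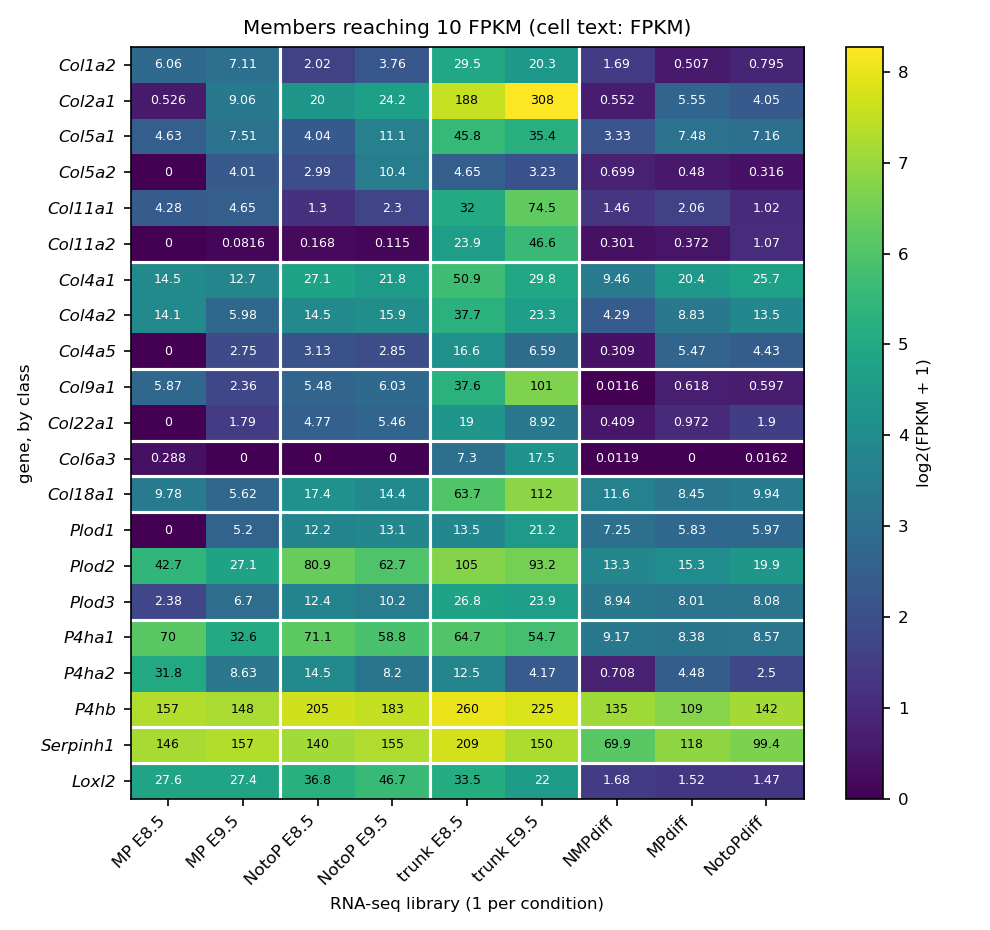
FPKM of the 21 genes that reached 10 FPKM in at least 1 library, written in each cell and coloured by log2(FPKM + 1), with genes grouped by class and libraries in columns, 1 per condition. The fibrillar genes Col2a1, Col11a1 and Col11a2, and Col9a1 and Col18a1, are brightest in the 2 trunk columns, whereas P4hb and Serpinh1 are bright in all 9.

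The other 31 collagen genes did not reach 10 FPKM in any library. Beside those already given, the beaded filament chains other than *Col6a3* peaked at 2.78 FPKM (*Col6a2*, E8.5 MPs), the 3 short-chain collagens, of types VIII and X, at 4.94 (*Col8a2*, E9.5 trunk notochord), the transmembrane collagens at 8.04 (*Col13a1*, E9.5 MPs), and types VII, XXVI and XXVIII at 8.57 (*Col26a1*, MPdiff). *Col6a4* was at 0 in all 9 libraries. *Col15a1*, the other multiplexin, had 3.72 and 1.79 FPKM in trunk notochord and was at 0 in NotoPs and MPs of both stages.

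Trunk notochord also differed from NotoPs in genes of other cell types. The summed FPKM of 8 endoderm genes was 207 and 138 in trunk notochord, led by *Spink3* (136 FPKM) at E8.5 and *Afp* (95.7) at E9.5, against 37.7 and 3.86 in NotoPs. In MPs it was 86.3 at E8.5, with *Afp* at 62.2, and 2.39 at E9.5. Not all genes of the list were higher in trunk notochord than in NotoPs. *Cpn1* (7.37 against 30.0) and *Sox17* (0 against 3.58) were lower at E8.5, and *Trh* (0 against 0.465) and *Apoa2* (0 against 1.24) at E9.5. The sum of 8 somite and sclerotome genes was 59.4 and 38.8 against 21.7 and 21.4, and the sclerotome gene *Pax1* had 13.5 FPKM in E9.5 trunk notochord and 0 in the other 5 embryonic libraries. Of the other genes of this list, *Meox1* had 25.9 FPKM in E8.5 trunk notochord and 14.9 in E8.5 NotoPs, *Tcf15* 11.8 and 1.01, *Pax3* 9.90 and 0.279, *Foxc2* 9.69 and 2.77, and *Pax9* was at 0 in both. For neural tube genes the sums were 41.4 and 23.5 against 21.2 and 12.2. At E8.5 *Nkx6-1* (14.7 against 0.525), *Sox3* (7.46 against 2.28), *Sox1* (3.27 against 0) and *Nkx2-2* (1.62 against 0) were higher in trunk notochord. *Sox2* (14.3 against 17.3) and *Pax6* (0 against 1.10) were lower. At E9.5 *Nkx2-2* (7.02 against 0.629) and *Sox2* (14.5 against 10.5) were among those higher and *Sox3* (0 against 0.624) was lower. For 8 fibroblast genes the sums were 33.9 and 20.5 against 46.2 and 42.0. Directions within the fibroblast list were mixed. *Fbln2* had 4.57 and 7.67 FPKM in trunk notochord against 27.6 and 29.0 in NotoPs, and *Pdgfra* 18.1 and 5.07 against 10.9 and 11.6. *Dcn* had 5.83 and 1.29 against 2.05 and 0.717, and *Postn* 4.11 and 5.32 against 4.52 and 0.802. *Lum* had 1.15 in E9.5 trunk notochord alone. *Thy1* had 1.27 and 1.09 at E8.5 and 0 in both at E9.5, and *S100a4* and *Mgp* were at 0. Sums of endothelial and erythroid genes stayed at or below 3.52 FPKM everywhere. The sum of the paraxial mesoderm progenitor genes went the other way, from 227 and 156 in NotoPs to 14.9 and 4.48 in trunk notochord. *Tbx6*, *Msgn1*, *Dll1*, *Dll3* and *Hes7* were lower in trunk notochord at both stages. *Pcdh8* was higher there at both, with 3.55 FPKM against 1.27 and 4.48 against 0.162. *Osr1* was higher at E8.5, with 4.37 against 2.81. The part of other cells in the collagen differences was not tested.

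The NotoP libraries entered the ratio over MPs as well as the ratio of trunk notochord over NotoPs, so these comparisons share samples. Between NotoPs and MPs, 7 of the 57 genes were at least 3-fold higher in NotoPs at E8.5 (8.83% of all genes were) and 1 was lower, *Col1a1* (4.02% of all genes). Of the 7, *Col5a2*, *Col4a5*, *Col22a1* and *Plod1* were at 0 in the E8.5 MP library, and the others were *Col2a1*, *Col4a6* and *Plod3*. With E9.5 MPs as the comparator in place of this library, 2 genes were higher, and the share of all genes was not counted. At E9.5, 1 gene was higher, *Col8a2* (2.53 FPKM, and 0 in MPs; 2.63% of all genes), and 0 were lower (1.11%). No gene of the set passed at both stages in either direction, beside 1.31% of all genes for higher and 0.238% for lower. The 7 genes are 12.3% of the set.

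Of the processing genes, *P4hb* and *Serpinh1* had the highest levels in every library. Protein disulfide isomerase, the beta subunit of prolyl 4-hydroxylase, is encoded by *P4hb* (chromosome 11, 120560298 to 120573253). The gene had 157 and 148 FPKM in MPs, 205 and 183 in NotoPs, 260 and 225 in trunk notochord, and 135, 109 and 142 in NMPdiff, MPdiff and NotoPdiff cells. *Serpinh1* (chromosome 7, 99345375 to 99353239), the gene of the collagen chaperone Hsp47, had 146 and 157 in MPs, 140 and 155 in NotoPs, 209 and 150 in trunk notochord, and 69.9, 118 and 99.4 in culture. Neither differed 3-fold in any of the 5 comparisons. Across the embryonic libraries *Serpinh1* spanned 140 to 209 FPKM, while *Col2a1* spanned 0.526 to 308.

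The catalytic subunit gene *P4ha1* (chromosome 10, 59323197 to 59373304) had levels of 70.0 and 32.6 FPKM in MPs, 71.1 and 58.8 in NotoPs, 64.7 and 54.7 in trunk notochord, and 9.17, 8.38 and 8.57 in culture. *P4ha2* (chromosome 11, 54100924 to 54131668), a second catalytic subunit, had 31.8 and 8.63 in MPs, 14.5 and 8.20 in NotoPs, 12.5 and 4.17 in trunk notochord, and 0.708, 4.48 and 2.50 in culture. The ratio of *P4hb* to *P4ha1* was 2.25 to 4.54 in the 6 embryonic libraries and 13.1 to 16.5 in the 3 cultured ones. *P4ha3*, the third catalytic subunit, reached at most 1.09 FPKM, in E9.5 NotoPs.

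Among the lysyl hydroxylases, *Plod2* (chromosome 9, 92539636 to 92608428), which acts on the telopeptides of fibrillar collagens, was the highest in every library. It had 42.7 and 27.1 FPKM in MPs, 80.9 and 62.7 in NotoPs, 105 and 93.2 in trunk notochord, and 13.3, 15.3 and 19.9 in culture. *Plod1* (chromosome 4, 147909753 to 147936776), which acts on the helix, had 0 and 5.20 in MPs, 12.2 and 13.1 in NotoPs, 13.5 and 21.2 in trunk notochord, and 7.25, 5.83 and 5.97 in culture. *Plod3* (chromosome 5, 136987019 to 136996646), which also has glycosyltransferase activity, had 2.38 and 6.70 in MPs, 12.4 and 10.2 in NotoPs, 26.8 and 23.9 in trunk notochord, and 8.94, 8.01 and 8.08 in culture. Among the embryonic populations, MPs had the lowest and trunk notochord the highest level of all 3 genes at either stage, with differences between trunk notochord and NotoPs below 3-fold.

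*Loxl2* (chromosome 14, 69608692 to 69695834), a lysyl oxidase with type IV collagen among its substrates, had the highest level of the lysyl oxidase genes in the embryo. It overlaps another annotated gene on the same strand, as *Plod3*, *Loxl3*, *Col7a1*, *Col19a1*, *Col25a1*, *Col26a1* and *Col27a1* do. Each of these could share reads with the gene it overlaps. *Loxl2* had 27.6 and 27.4 FPKM in MPs, 36.8 and 46.7 in NotoPs, 33.5 and 22.0 in trunk notochord, and 1.68, 1.52 and 1.47 in culture. All 6 embryonic values were above all 3 cultured ones. The other 4 lysyl oxidase genes had at most 6.46 FPKM, reached by *Loxl3* in E9.5 trunk notochord, and *Lox* itself was at 0 in NotoPs and MPs and had 0.491 and 1.59 FPKM in trunk notochord.

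A list of 30 further genes of collagen maturation, secretion and binding was examined alongside. Of these, 9 were at least 3-fold higher in NotoPs than in MPs at E8.5 and 2 lower, beside 8.83% and 4.02% of all genes, and 2 were higher and 2 lower at E9.5 (2.63% and 1.11%). Of the 9, *Leprel1*, *Leprel2*, *Fkbp14*, *Bmp1* and *Ddr1* were at 0 in the E8.5 MP library. *Sec24d*, which encodes a subunit of the COPII coat that exports procollagen, was higher at both stages, with 13.9 and 13.9 FPKM in NotoPs and 0.673 and 1.19 in MPs, log2 ratios of 3.16 and 2.77. *Pcolce2*, an enhancer of procollagen C-proteinase, was lower at both, with 2.02 and 3.80 FPKM against 9.74 and 17.4, log2 ratios of -1.83 and -1.94, and was at 0 in both trunk libraries. In trunk notochord over NotoPs, 3 genes of the list were higher and 1 lower at E8.5 (4.58% and 4.17% of all genes), and 5 were higher and 2 lower at E9.5 (4.33% and 5.17%). *Ppib*, which encodes the cyclophilin of the prolyl 3-hydroxylase complex, had 67.6 and 106 FPKM in MPs, 108 and 90.6 in NotoPs, 135 and 71.8 in trunk notochord, and 57.8 to 81.7 in culture. *Itgb1*, the beta subunit of the collagen-binding integrins, had 51.4 and 78.9 in MPs, 106 and 98.6 in NotoPs, 91.3 and 148 in trunk notochord, and 52.4 to 74.0 in culture.

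In culture, few of the genes differed between NotoPdiff and MPdiff cells by 3-fold. None of the 57 genes was at least 3-fold higher in NotoPdiff cells (1.55% of all genes were), and 2 were lower (0.442% of all genes): *Col14a1*, with 0.0151 FPKM against 6.08, and *Col26a1*, with 1.73 against 8.57. Of these, *Col26a1* has a mean of 1 FPKM or more, as 11922 genes do, of which 0.78% were lower. The median log2 ratio was 0.02, with 0 over all genes. Of the 10 genes higher in trunk notochord at both stages, *Col11a2*, *Col9a1*, *Col9a2*, *Col9a3* and *Col6a3* had at most 1.07 FPKM in cultured cells, *Col1a2* at most 1.69, *Col11a1* at most 2.06 and *Col2a1* at most 5.55. *Col5a1* reached 7.48 FPKM there and *Col18a1* had 11.6, 8.45 and 9.94. *Col4a1*, at 20.4 FPKM in MPdiff and 25.7 in NotoPdiff cells, was the highest collagen gene in both.

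The study also mapped binding of T (brachyury) and Foxa2, transcription factors of the notochord, by ChIP-seq in day 4 cultures enriched for NotoPdiff cells, 1 library per factor. Its peak lists hold 6875 T peaks and 22684 Foxa2 peaks, and all 57 genes were placed on GRCm38. A T summit within the gene or 10000 bp upstream was found at 12 genes (21.1%; 13.9% of the 23805 genes placed) and a Foxa2 summit at 32 genes (56.1%; 28.3%). These genes are long, with a median of 75150 bp against 15364 bp for all genes, and a longer gene holds more positions at which a summit can fall. Within 10000 bp of the start site, which does not depend on length, 3 genes had a T summit (5.26%; 8.01% of all genes) and 7 a Foxa2 summit (12.3%; 16.3%), so the excess was not seen there. With 50000 bp added on both sides of the gene, 27 genes had a T summit (34.0% of all genes did) and 49 a Foxa2 summit (61.1%). Signal below the cutoff is not in the lists, so binding without a called peak cannot be seen.

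Of the peaks in this window, 11 of 14 for T and 54 of 58 for Foxa2 lay inside introns. At these long genes most of the window is gene body, and the intron share over all genes was not counted. Their fold enrichment at the summit had medians of 7.79 for T and 7.23 for Foxa2, beside 7.45 and 7.19 over all peaks of each list. *Col11a1* had 5 Foxa2 peaks, all in introns, and *Col9a1* had 3 Foxa2 peaks and 1 T peak. *Col2a1*, *Col1a2*, *Col11a2*, *Col9a2*, *Col9a3*, *P4hb*, *Serpinh1*, *P4ha1* and *Loxl2* had a peak of neither factor in the window. Of the 21 genes that reached 10 FPKM, 11 had a peak of at least 1 factor, and the share of all genes with a peak of either was not counted.

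**Figure D5:**
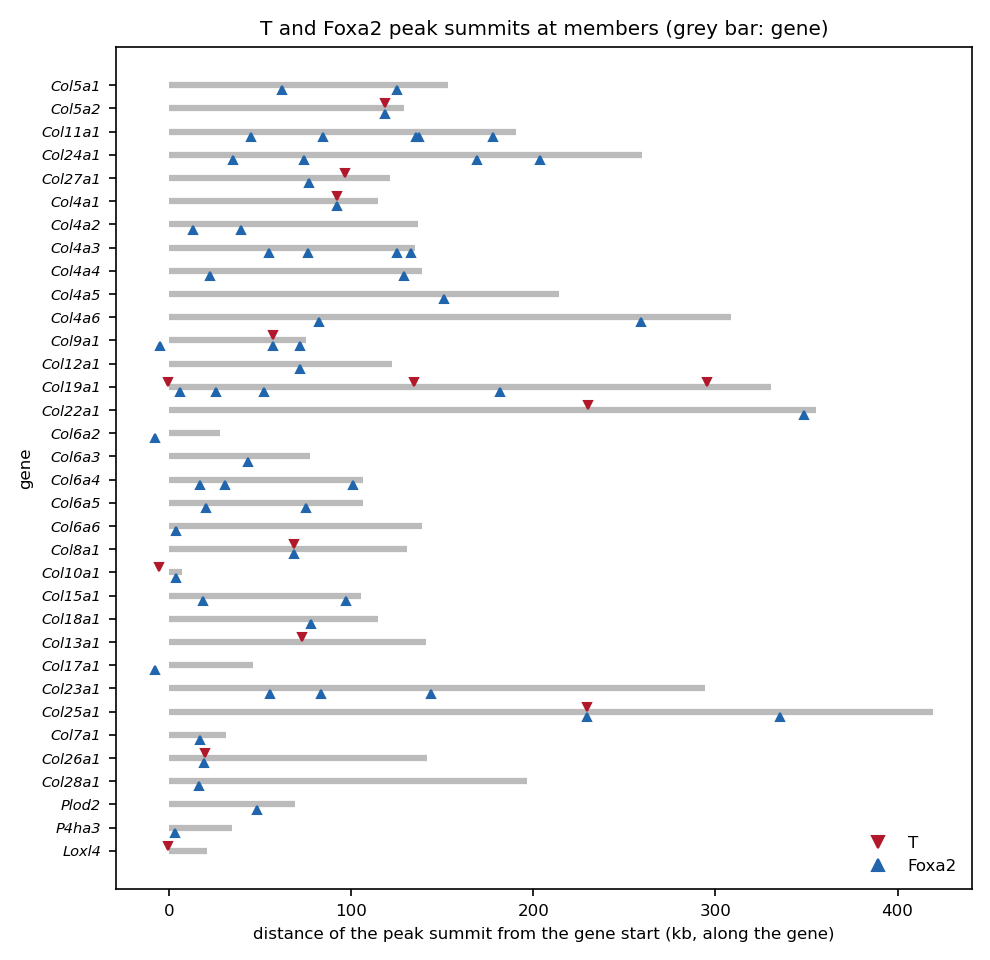
Position of each T (red) and Foxa2 (blue) peak summit, in kb from the gene start along the direction of transcription, at the 34 genes with a peak in the gene or the 10 kb before it. Grey bars give gene length, and 11 of the 14 T and 54 of the 58 Foxa2 summits lie in introns. The intron share over all genes was not counted.

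At 6 genes a T peak overlapped a Foxa2 peak: *Col9a1*, *Col4a1*, *Col5a2*, *Col8a1*, *Col25a1* and *Col26a1*, all in introns and with summits 13 to 184 bp apart. The share of all genes with such a pair was not counted, so whether 6 is many for genes of this length is not known. Windows of 201 bases centred on the T summit are printed for 4 of the 6 genes. *Col9a1* and *Col4a1* had the highest RNA levels of the 6 in any library, and the windows of *Col8a1* and *Col25a1* contained a forkhead motif. The windows are given in lower case. All are read from GRCm38 on the plus strand. Capitals mark exact matches to the forkhead motif TGTTTAC or its reverse complement GTAAACA, and the windows were also searched for the T half-site AGGTGTGA and its reverse complement TCACACCT, which do not overlap the forkhead motif in letters.
Col9a1, chr1:24234573-24234773: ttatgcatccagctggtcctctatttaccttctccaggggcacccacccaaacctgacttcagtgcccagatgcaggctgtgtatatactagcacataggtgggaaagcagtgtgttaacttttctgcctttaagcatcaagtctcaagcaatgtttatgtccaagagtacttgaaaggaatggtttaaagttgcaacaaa
Col4a1, chr8:11220695-11220895: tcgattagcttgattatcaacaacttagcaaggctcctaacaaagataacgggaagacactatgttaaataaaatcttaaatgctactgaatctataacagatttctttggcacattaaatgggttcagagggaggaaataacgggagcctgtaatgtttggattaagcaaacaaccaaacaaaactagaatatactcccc
Col8a1, chr16:57686191-57686391: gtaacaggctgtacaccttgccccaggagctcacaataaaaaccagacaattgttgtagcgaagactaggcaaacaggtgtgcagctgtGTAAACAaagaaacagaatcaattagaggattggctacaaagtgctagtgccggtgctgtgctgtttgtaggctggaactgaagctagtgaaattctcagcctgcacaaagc
Col25a1, chr3:130409581-130409781: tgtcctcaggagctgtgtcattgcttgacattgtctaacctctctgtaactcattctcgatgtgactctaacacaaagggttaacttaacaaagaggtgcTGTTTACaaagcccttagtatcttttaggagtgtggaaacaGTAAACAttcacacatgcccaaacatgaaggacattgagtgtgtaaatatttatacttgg

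The window of *Col25a1* held 2 forkhead matches, 1 of which began at the T summit, and that of *Col8a1* held 1. The T half-site was found in none of the 6 windows. Over all T windows of this length, 13.0% held the forkhead motif and 4.08% the T half-site, and over all Foxa2 windows 13.8% and 0.974%. A match is a description of the letters, and no match says only that they are not in this window. At *Col25a1* the fold enrichments were 13.1 for T and 13.0 for Foxa2, the largest pair of the 6, and the gene had at most 1.37 FPKM in any library (MPdiff). At *Col9a1* they were 9.77 and 5.43, at *Col8a1* 9.89 and 12.2, and at *Col4a1* 7.58 and 4.90. *Col8a1* too had low RNA levels, at most 0.630 FPKM in any library. *Col4a1* had 25.7 FPKM in NotoPdiff cells, the kind for which the ChIP-seq cultures were enriched. *Col9a1* had 0.597 FPKM there. Its high levels, 37.6 and 101 FPKM, were those of trunk notochord, where no binding was mapped.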

How the data were processed

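Of the 21 samples of the series, 9 RNA-seq and 2 ChIP-seq libraries were used, and the other 10 were not used here. The authors trimmed the reads, aligned them to mm10 with TopHat2 2.1.1 and Bowtie 1.2.2 on RefSeq models, removed duplicates by molecular identifiers and deposited FPKM values from Cufflinks 2.2.1; 0 columns lacked a sample. The study gives a strand setting for the alignment and names none for the FPKM step. Whether the FPKM values keep overlapping genes on opposite strands apart is therefore not stated. Genes overlapping on the same strand cannot be told apart. The authors called peaks with MACS3 3.0.0b1 at a q-value of 0.1 and deposited for each peak its fold enrichment, −log10 of p and q, a score, which was not used here, and the summit offset. Whether a control library entered the peak calls is not given in the sources used here.

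Ratios are log2 of FPKM + 1 (pseudocount 1), with no minimum level and no test, since each condition has 1 library. All 23983 genes gave the background shares. Genes were named with all 9 values when they reached 10 FPKM in at least 1 library. Of the 30 other pathway genes, those past 3-fold in NotoPs over MPs at both stages or reaching 50 FPKM were named. Other genes named were chosen after their values were seen. The gene set and all lists were chosen with earlier results of these data known. Gene positions and sequences are from RefSeq's GRCm38 annotation and genome, coordinates count from 1, and symbols placed 23805 genes. The counting of 3-fold differences was tested on simulated FPKM values. Alternatives changed the pseudocount, the minimum, the fold, the scaling, the comparator, the q cutoff and the window. Python 3.11.15, numpy 2.4.6, pandas 2.3.3, pysam 0.24.0, samtools 1.23.1 and matplotlib 3.10.9 were used.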

Additional observations from a re-analysis of the deposited data

Results flagged for a closer look

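For 4 collagen genes the same kind of contrast gave opposite differences of at least 2-fold at the 2 stages or in embryo and culture. None of these differences was tested, since each condition has 1 library, and the values below are differences of FPKM. *Col4a6*, a type IV chain, was higher in NotoPs than in MPs by 6.88 FPKM at E8.5, while the difference of NotoPdiff from MPdiff cells was -4.24. *Col12a1*, a fibril-associated collagen, differed between trunk notochord and NotoPs by 5.07 FPKM at E8.5 and by -1.7 at E9.5, where the trunk library lists it at 0. *Col13a1*, a transmembrane collagen, differed between NotoPs and MPs by 1.95 FPKM at E8.5, where the MP library lists it at 0, by -4.93 at E9.5 and by -2.44 in culture. *Col26a1* differed by 3.66 FPKM between NotoPs and MPs at E8.5 and by -6.84 between NotoPdiff and MPdiff cells.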

How the results depend on the processing

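The 10 genes higher in trunk notochord than in NotoPs at both stages numbered 10 to 13 under the alternatives tried. A pseudocount of 0.1 moved the counts at least 3-fold higher and lower to 16 and 5 for NotoPs over MPs at E8.5 (7 and 1 as reported), to 6 and 2 at E9.5 (1 and 0) and to 6 and 4 for NotoPdiff over MPdiff (0 and 2). For trunk notochord over NotoPs it moved the lower count to 8 at E8.5 (2), and the counts at E9.5 to 20 and 7 (12 and 1), and NotoPs over MPs at both stages had 2 higher genes (0). At 2-fold the counts were 11 and 6, 11 and 2, and 2 and 5, with 4 genes lower in trunk notochord at each stage, and 4 higher in NotoPs over MPs at both stages. The share of all genes was not counted at this pseudocount, at 2-fold or with the other comparators, so these counts have no background beside them. A mean of at least 1 FPKM left 1 gene lower in E8.5 trunk notochord and 1 in NotoPdiff cells. With E9.5 MPs as comparator, 2 genes were higher in E8.5 NotoPs. With NotoPs of the other stage, an alternative chosen after seeing the data like those for both stages, 1 and 2 genes were lower in trunk notochord. T summits were found at 27 genes with 50000 bp added on both sides and at 3 within 10000 bp of the start site (12), and Foxa2 summits at 49 and 7 (32). Scaling by the median of ratios shifted ratios by 0.01 to 0.02. Of 190 further values for named genes, 188 kept their direction and their side of the 3-fold threshold and 2 crossed it, both at a pseudocount of 0.1: *Col5a2* in trunk notochord over NotoPs at E9.5 (-1.66) and *Col11a1* in NotoPs over MPs at E8.5 (-1.65). Sizes of genes near 0 in 1 library grew with that pseudocount, *Col11a2* in trunk notochord over NotoPs from 4.42 to 6.49 at E8.5 and from 5.42 to 7.77 at E9.5, and *Col2a1* in NotoPs over MPs at E8.5 from 3.78 to 5.01. No paired analysis was possible because each condition has 1 library, and for the same reason no replicate could be left out.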

Other observations

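Receptors for collagen are a further group of the pathway list, chosen for description after their values were seen. Of 7 receptor genes, 1 was at least 3-fold higher in E8.5 trunk notochord than in NotoPs of that stage, and 3 were at E9.5, beside 4.58% and 4.33% of all genes. *Ddr2*, a receptor tyrosine kinase for fibrillar collagen, had 3.71 FPKM in E8.5 trunk notochord and 0.228 in E8.5 NotoPs, and 8.89 and 0 at E9.5. *Ddr1*, its relative with a broader range of collagen ligands, had 19.7 and 7.53 FPKM at E8.5 and 13.7 and 3.19 at E9.5. *Itga11*, the alpha subunit of a collagen-binding integrin, had 1.78 and 0 FPKM at E8.5, then 8.18 and 0.130 at E9.5. *Fkbp10*, a folding enzyme of the endoplasmic reticulum, had 18.6 and 24.7 FPKM in trunk notochord and 6.16 and 5.69 in NotoPs. *Colgalt2*, a collagen galactosyltransferase, had 32.8 FPKM in E9.5 trunk notochord and between 0.564 and 9.30 in the other embryonic libraries.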
